A study of Mus musculus with 4 samples.

Results

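The imiquimod response of whole ear skin was compared between 2 genotypes, as the response of Traf6EKO skin minus the response of Traf6f/f skin. For each gene, the log2 level without imiquimod (IMQ) was subtracted from the level with IMQ within a genotype, and the f/f response was then subtracted from the EKO response. Every gene with exactly 1 symbol in the probe annotation was a member, which gave 19938 genes, the same as the whole series, each read by its probe set of highest mean over the 4 arrays. Of these, 10646 reached the floor on at least 1 array. The floor is the median level of all named genes on an array, between 6.93 and 6.98, below which signal approaches background.

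The mice were 8-week-old females that carried floxed Traf6 alleles (Traf6f/f, here f/f) or had lost Traf6 in the epithelium (Traf6EKO, here EKO). The series title describes the deletion as keratinocyte-specific, and the sources used here do not name the Cre line. Ears of each genotype were left untreated or received 10 mg per day of a cream with IMQ for 2 days, and each of the 4 groups holds 1 array. No value below therefore has a replicate error or a p-value, the number of arrays limits the precision, and a difference between genotypes cannot be told apart from a difference between the ears sampled. An n of 2 appears in the series description, without a statement on whether several mice were pooled on an array. The labelled tissue could be checked on its markers: all 5 keratinocyte markers (Krt5, Krt14, Krt1, Krt10, Trp63) lay above the floor on every array. Traf6 itself was not lower on the EKO arrays, at 9.51 in untreated f/f, 9.30 in IMQ f/f, 9.65 in untreated EKO and 9.35 in IMQ EKO skin. Dermal, fat and muscle cells of the ear keep the gene, and where its probes lie relative to the deletion is unknown, so the level cannot serve as a check of genotype.

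TRAF6 is an adaptor and ubiquitin ligase used by Toll-like receptors and by the receptors of the IL-1 and IL-17 families, and it passes their signals to NF-kB and to MAP kinases. IMQ activates TLR7, and in mouse skin it provokes a psoriasis-like state with thickened epidermis, cornified envelope and antimicrobial gene expression, IL-17 and IL-36 cytokines and neutrophil entry. Keratinocytes both answer and amplify these cytokines. Hair follicles of the same skin cycle between growth and rest, and the hair fibre is built of hair keratins bound together by keratin-associated proteins.

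A gene was called a responder when its level was at least 2-fold higher or lower with IMQ in either genotype. In f/f skin 403 genes were at least 2-fold higher (3.82% of those above the floor) and 277 lower (2.63%). In EKO skin 69 were higher (0.671%) and 10 lower (0.0972%). The union held 683 responders (6.42% of 10646). For each, the smaller response was divided by the larger one, with its sign. A response was called kept at a ratio of at least 0.75, reduced between 0.25 and 0.75, lost between -0.25 and 0.25 and reversed at -0.25 or below. Reduced and lost stand for responses that were larger in f/f. Most responders were reduced in EKO (530, 77.6%). Another 97 were lost (14.2%), 57 of them higher in f/f and 40 lower. Kept responses numbered 16 (2.34%) and reversed ones 38 (5.56%). The last 2 responders had the larger response in EKO: Pinlyp, at a ratio of 0.69, and Cxcl10, whose f/f response lay near 0.

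**Figure D1:**
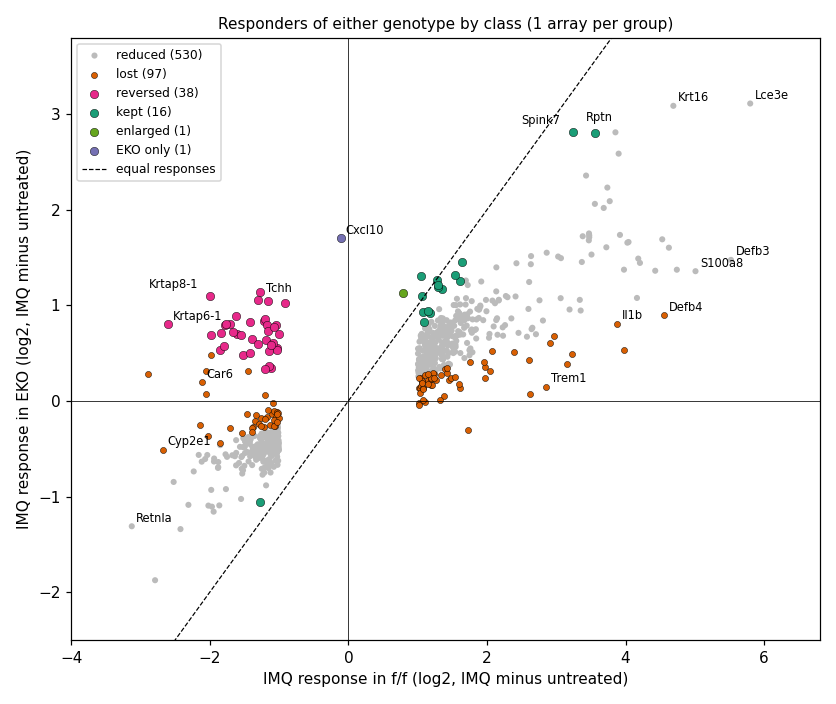
IMQ response in f/f (x axis) against IMQ response in EKO (y axis), both log2, for the 683 responders, coloured by class; the dashed line marks equal responses. Most points lie between the dashed line and the horizontal zero line. The 38 reversed genes lie at the upper left and border on lost genes at the ratio cut.

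The genotype difference in the response was at least 2-fold higher in EKO for 113 genes (1.06%) and at least 2-fold lower for 126 (1.18%). The 126 genes with a lower difference had a median response of 2.27 in f/f and 0.75 in EKO. The 113 genes with a higher difference had a median of -1.47 in f/f and 0.29 in EKO, and 46 of them stood on the 4 hair lists (hair shaft keratins, keratin-associated proteins, inner root sheath genes and regulators of hair growth). Where a gene was read by several probe sets above the floor (549 genes), the difference of the responses varied between its probe sets with a pooled SD of 0.13. That SD covers the reading of the same 4 arrays and leaves out the spread between mice.

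The upstream sequences of 4 genes from different classes are shown as examples and do not stand for their classes. How often each motif occurred per class is given with the reversed genes below. The 150 bases before the annotated start are from RefSeq (GRCm38.p6), 5′ to 3′ on the gene's strand, with capitals marking matches to the motifs named after them. Rptn, on the plus strand at chr3:93393549-93393698, kept its response. Sprr2e, at chr3:92351993-92352142 on the plus strand, had a reduced one. Cxcl2, at chr5:90903749-90903898 on the plus strand, had a lost one. Krtap8-1, at chr16:89487953-89488102 on the minus strand, had a reversed one.
Rptn: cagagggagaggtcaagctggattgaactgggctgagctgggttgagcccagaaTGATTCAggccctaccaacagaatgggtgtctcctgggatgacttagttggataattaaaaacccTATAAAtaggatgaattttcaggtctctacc
Sprr2e: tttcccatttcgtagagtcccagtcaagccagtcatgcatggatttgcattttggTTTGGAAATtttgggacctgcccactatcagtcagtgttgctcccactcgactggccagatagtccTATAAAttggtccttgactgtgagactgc
Cxcl2: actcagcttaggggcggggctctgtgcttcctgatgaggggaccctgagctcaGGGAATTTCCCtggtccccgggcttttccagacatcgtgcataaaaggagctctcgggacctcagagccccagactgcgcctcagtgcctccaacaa
Krtap8-1: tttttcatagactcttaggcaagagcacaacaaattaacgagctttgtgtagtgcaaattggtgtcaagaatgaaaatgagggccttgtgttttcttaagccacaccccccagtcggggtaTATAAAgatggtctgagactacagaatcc
The 4 motifs searched on both strands, at any position, were the TATA box (TATAAA), the AP-1 site (TGANTCA), the C/EBP site (TTNNGNAAT) and the NF-kB consensus site. Rptn holds an AP-1 and a TATA match, Sprr2e a C/EBP and a TATA match, Cxcl2 a pair of overlapping NF-kB matches and Krtap8-1 a TATA match.

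Among cytokines, the IL-1 and IL-36 list of 10 measured genes had a median response of 1.25 in f/f and 0.31 in EKO, and 7 of the 10 were responders, 4 reduced and 3 lost. For comparison, 6.42% of genes above the floor were responders, 77.6% of them reduced and 14.2% lost. Il1b, the secreted form of IL-1 made mainly by myeloid cells, stood at 5.54 in untreated f/f, 9.41 in IMQ f/f, 5.77 in untreated EKO and 6.58 in IMQ EKO skin. The IMQ f/f array alone was high, and the other 3 lay below the floor. Il1a, the epithelial alarmin form, was at 8.82 and 10.86 in f/f and at 9.26 and 9.58 in EKO, a response of 2.04 against 0.31. Il33, an alarmin of the same family, responded by 1.62 in f/f and 0.14 in EKO. The IL-36 genes, which keratinocytes secrete in psoriasis-like skin, are listed in the annotation as Il1f6, Il1f8 and Il1f9. Of these, Il1f6 and Il1f8 were reduced and not lost. The median ratio of the 7 responders on the list was 0.29. Il1f6 was at 8.70 and 11.35 in f/f and at 9.60 and 10.36 in EKO, and Il1f8 responded by 1.42 and 0.66. The receptor antagonist Il1rn responded by 1.08 and 0.35.

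Of the 14 measured IL-17 and IL-23 family genes, 2 reached the floor on any array. Il17c, an epithelial cytokine, responded by 1.15 in f/f (6.11 to 7.26) and 0.18 in EKO (5.87 to 6.04). Il23a, Il6 and Tnf moved by 0.82, 0.69 and 0.68 in f/f and by 0.05, 0.02 and 0.01 in EKO, but Il23a and Il6 stayed below the floor on all 4 arrays. Socs3, a feedback inhibitor induced by STAT3, was at 7.56 and 8.58 in f/f and at 7.96 and 7.92 in EKO skin. Its response of 1.02 in f/f was thus -0.04 in EKO. A dimmer Socs3 probe set gave 0.33 and 0.02, and the mean of both (0.68 in f/f) misses 2-fold and ends the call as lost.

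Among chemokines, 4 of the 11 neutrophil chemokine and G-CSF axis genes were responders, 2 reduced and 2 lost, and 3 of 15 CC chemokines for monocytes and lymphocytes were, all reduced. Of genes above the floor 6.42% were responders, and of all responders 77.6% were reduced and 14.2% lost. Being reduced thus does not set the 3 CC chemokines apart from other responders. The CC chemokines had a median difference of -0.13, with 10 of 15 lower in EKO (53.3% of genes above the floor were). Cxcl2, whose promoter is printed above, stood at 4.66 in untreated f/f, 7.81 in IMQ f/f, 4.79 in untreated EKO and 5.17 in IMQ EKO skin, so 1 array lay above the floor. Ccl3 responded by 2.81 and 0.84, and Ccl20, which recruits CCR6-bearing lymphocytes and dendritic cells, by 3.19 and 0.96. Ccl2 and Ccl7, monocyte attractants, responded by 1.75 and 1.77 in f/f and by 0.48 and 0.74 in EKO. On the neutrophil chemokine list, 10 of 11 had a lower response in EKO, with medians of 0.71 and 0.22.

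Neutrophil markers were also highest on the IMQ f/f array. The summed level of the 7 fixed markers was 8.55 in untreated f/f, 12.56 in IMQ f/f, 8.79 in untreated EKO and 9.78 in IMQ EKO skin (log2), and 0, 5, 1 and 3 of them lay above the floor. Ly6g and Mmp8, the most restricted of them, were below it on all 4 arrays. S100a8 and S100a9, which stressed keratinocytes also make, held 85.4% of the linear sum on the IMQ f/f array. Without them the sum was 7.61 and 9.78 in f/f and 8.05 and 8.73 in EKO. In whole skin, fewer cells of a type and less RNA per cell cannot be told apart, and the part of neutrophils in the cytokine and chemokine values was not tested. Trem1, an amplifying receptor of myeloid cells, responded by 2.86 in f/f and 0.15 in EKO (4.57 to 4.72), and Csf3r by 1.45 and 0.22. Itgam, the CD11b integrin chain shared by neutrophils, monocytes and macrophages, was in contrast kept, at 7.73 and 8.81 in f/f and at 7.55 and 8.49 in EKO.

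Cxcl10, Pinlyp and Krtap24-1 met the 2-fold threshold in EKO and not in f/f, and of these Cxcl10 was the one with an f/f response near 0. This interferon-inducible attractant of T cells stood at 7.83 in untreated f/f, 7.72 in IMQ f/f, 6.66 in untreated EKO and 8.36 in IMQ EKO skin. The untreated EKO array was the low one, so that 1.17 of the difference of 1.81 lay in the untreated gap and 0.64 in the gap with IMQ. Its 150 upstream bases lie on the minus strand at chr5:92348890-92349039, and capitals mark NF-kB and AP-1 matches.
Cxcl10: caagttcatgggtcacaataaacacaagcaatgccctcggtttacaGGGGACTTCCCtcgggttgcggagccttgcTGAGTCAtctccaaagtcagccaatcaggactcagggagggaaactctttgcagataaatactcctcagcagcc
An NF-kB match thus stands before Cxcl2, a lost gene, and before Cxcl10. Cxcl10 belongs to the CXCR3 ligands and interferon-gamma-type genes, whose 15 measured members had median responses of -0.11 (f/f) and -0.03 (EKO). Its neighbour Cxcl9 was at 8.69 and 8.59 in f/f and at 7.21 and 7.79 in EKO skin, lower in EKO on both arrays. Type I interferon-stimulated genes (28 measured, none a responder) had a median of 0.16 in f/f and -0.06 in EKO, with Oas3 at 0.95 and 0.11 and Irf7 at 0.56 and -0.20.

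On the signalling route itself, receptors, adaptors and kinases from TLRs and IL-1 receptors up to TRAF6 had a median difference of -0.10 over 22 genes, and TRAF family members, IL-17 receptors and TRAF6 partners one of 0.01 over 21. Myd88, the adaptor of TLRs and IL-1 receptors, responded by 0.98 and 0.27. Of 17 NF-kB subunit, inhibitor and feedback genes, 16 had a lower response in EKO, and all 17 were lower in EKO than in f/f with IMQ. Nfkbia, the IkB-alpha inhibitor, was at 10.09 and 10.45 in f/f and at 10.18 and 9.86 in EKO. Tnfaip3, the A20 deubiquitinase, responded by 0.53 and -0.31, and Bcl3, an NF-kB cofactor, by 2.26 and 0.79. Among 23 AP-1 and immediate-early genes, 21 had a lower response in EKO, with medians of 0.51 and 0.08. There the untreated gap counted for more: 21 of 23 were higher in EKO without IMQ, as in Fos, at 6.99 and 7.79. Across the genes above the floor, 53.3% had a lower response in EKO, and the median gap was 0.02 without and -0.001 with IMQ.

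Antimicrobial genes spanned every class from kept to lost. The 25 measured genes had a median response of 1.30 in f/f and 0.60 in EKO, and 15 were responders (9 reduced, 4 lost and 2 kept). Responders made up 6.42% of genes above the floor, with 77.6% of them reduced, 14.2% lost and 2.34% kept. Defb3, a beta-defensin, stood at 6.32 in untreated f/f, 11.84 in IMQ f/f, 6.17 in untreated EKO and 7.64 in IMQ EKO skin, a response of 5.52 against 1.48. Defb4, another beta-defensin, responded by 4.56 and 0.90 and was lost by the ratio. S100a8, a calprotectin subunit, was at 6.17 and 11.18 in f/f and at 6.18 and 7.54 in EKO. Without IMQ all 3 genes lay under the floor in either genotype, and with IMQ they were far apart. Defb6, a beta-defensin, kept its response, with 10.46 and 11.81 in f/f and 9.91 and 11.09 in EKO. The antiprotease gene Wfdc12 also kept it, at 1.30 and 1.21, around the floor. Slpi, an antiprotease that is also antimicrobial, did not, at 2.97 and 0.68. Lcn2, which withholds iron from bacteria, responded by 2.64 and 0.75.

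**Figure D2:**
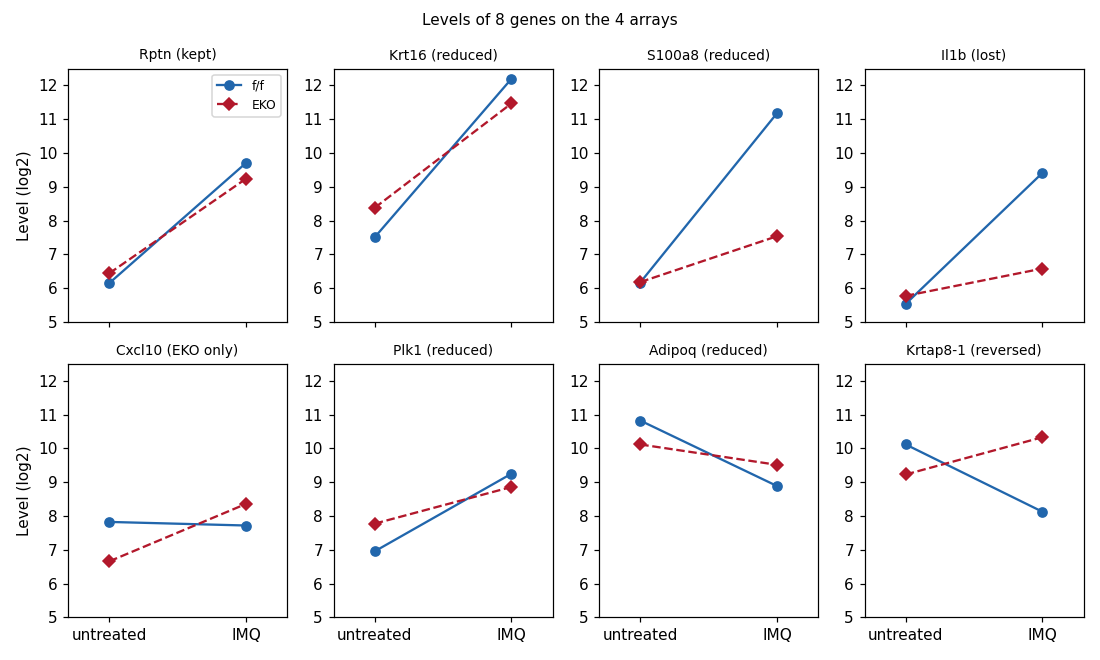
Log2 level (y axis) of 8 genes on the 4 arrays, untreated and with IMQ (x axis), with f/f as blue circles and EKO as red diamonds; lines join the 2 arrays of a genotype. Rptn ran nearly in parallel, Il1b was high on the IMQ f/f array alone, and the lines of Krtap8-1 crossed.

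The 20 wound and stress keratins and partners had a median response of 1.48 in f/f and 0.79 in EKO, and of 12 responders 9 were reduced, 2 kept and 1 lost, a reduced share near the 77.6% of all responders. Krt16, a keratin of wounded and hyperproliferative epidermis, stood at 7.51 in untreated f/f, 12.20 in IMQ f/f, 8.38 in untreated EKO and 11.47 in IMQ EKO skin. Krt6a responded by 3.85 and 2.81, and Krt6b by 3.43 and 2.36. All 3 keratins were thus high with IMQ in both genotypes. Krt17, which is induced together with them, was kept at 1.18 and 0.92. Spink7, a serine protease inhibitor of stratified epithelia, was kept at 3.25 and 2.81, from 5.09 to 8.33 in f/f and from 5.98 to 8.79 in EKO. The 14 EGF receptor ligands and receptors had median responses of 0.11 and 0.06, and their 5 responders went both ways. Epgn (epigen) was at 6.67 and 10.65 in f/f and at 7.30 and 8.67 in EKO, and Hbegf responded by 2.71 and 0.70. Nrg1, a ligand of ERBB3 and ERBB4, was lost, at 1.32 and 0.01. Btc (betacellulin), lower with IMQ, was lost too, at -1.27 and -0.18.

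The epidermal differentiation complex, a gene cluster on chromosome 3, held each kind of behaviour within a stretch of neighbouring genes. Of its 62 measured genes, 23 were responders, 17 had a difference at least 2-fold lower and 5 at least 2-fold higher. Across genes above the floor these shares were 6.42%, 1.18% and 1.06%. The 9 Sprr2 genes, precursors of the cornified envelope that stress induces, had a median response of 3.98 in f/f and 1.36 in EKO. Sprr2e stood at 6.46 in untreated f/f, 10.99 in IMQ f/f, 6.50 in untreated EKO and 8.19 in IMQ EKO skin. The 5 Lce3 genes, late envelope genes induced by injury and psoriasis, had medians of 3.51 and 1.60. Lce3c was at 8.81 and 12.32 in f/f and at 10.27 and 11.80 in EKO. Most of its difference of -1.98 thus lay in the untreated gap of 1.46. For Sprr2e, below the floor on both untreated arrays, the gap was -2.80 with IMQ and the untreated gap was read near background. The 13 Lce1 genes between these groups, which serve the normal barrier, responded by a median of 0.06 in f/f and 0.15 in EKO, and none was a responder.

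**Figure D3:**
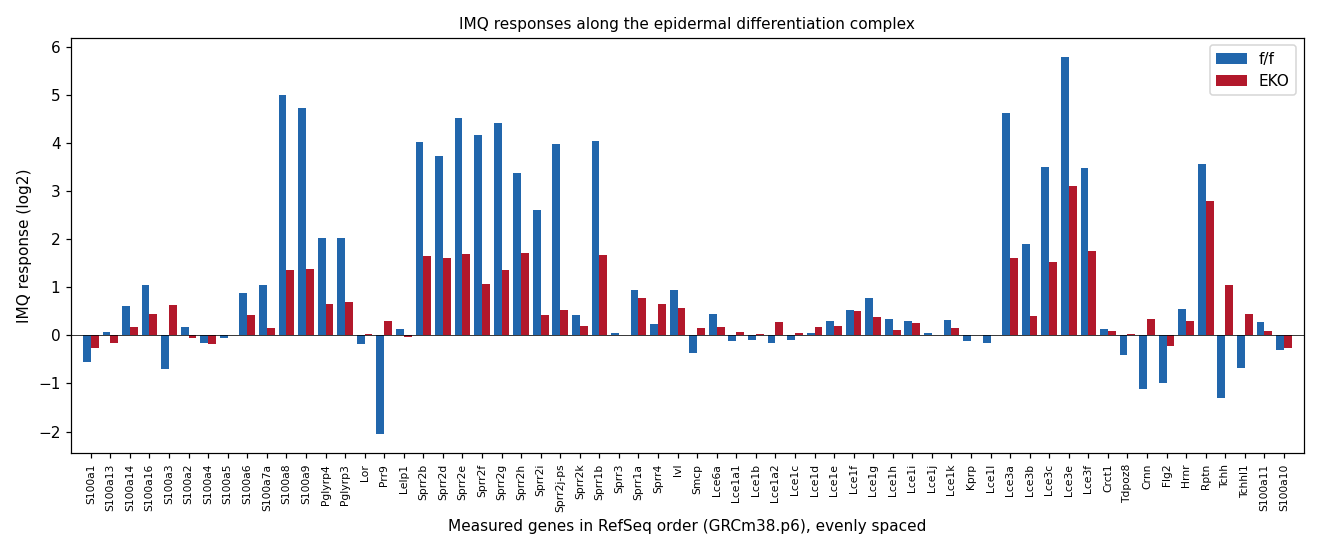
IMQ response (y axis, log2) in f/f (blue) and EKO (red) for the 62 measured genes of the epidermal differentiation complex, in RefSeq order and evenly spaced (x axis). The Sprr2 and Lce3 blocks have tall blue and shorter red bars, the Lce1 block between them is flat, and Rptn and Tchh near the right end are kept and reversed.

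Toward one end of the cluster, the S100 fused-type genes diverged from one another. Rptn (repetin), whose promoter is printed above, was at 6.15 and 9.71 in f/f and at 6.44 and 9.24 in EKO, kept at a ratio of 0.79. The next measured gene, Tchh (trichohyalin), a matrix protein of the inner root sheath, was at 8.78 and 7.48 in f/f and at 7.80 and 8.86 in EKO, reversed. Crnn (cornulin) was reversed as well, at -1.11 and 0.34, but it lay below the floor on the IMQ f/f and untreated EKO arrays. Flg2 responded by -0.99 and -0.23, and Hrnr (hornerin) by 0.55 and 0.29. Sprr2, Lce3, stefin A, beta-defensin and keratin-associated genes have near-identical relatives, and a probe set named for one may also read another.

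Envelope and barrier genes of the unstressed epidermis had small differences. Filaggrin-type and cornified envelope genes responded by medians of 0.31 and 0.29 (23 genes), desmosome and hemidesmosome genes by 0.15 and 0.02 (23 genes), and basal and suprabasal keratins by 0.10 and 0.04 (15 genes). Ivl (involucrin) was higher by 0.94 in f/f and 0.56 in EKO, and Lor (loricrin) moved by -0.18 and 0.02. Exceptions stood within these lists. Tgm3, a transglutaminase that crosslinks the envelope, responded by 1.62 and 0.50, and Dsg3, the desmosomal cadherin of lower layers, by 1.40 and 0.34. Krt15, a keratin of basal and bulge keratinocytes, was at 11.10 and 9.16 in f/f and at 10.80 and 10.16 in EKO. Kallikreins, which cleave desmosomes, and their inhibitors had medians of 0.70 and 0.40, with a larger median difference of -0.44. In 18 of these 20 genes the response was lower in EKO (53.3% of genes above the floor). Of their 9 responders, 8 were reduced and 1 lost (77.6% and 14.2% of all responders). Klk6 was at 8.58 and 12.06 in f/f and at 9.73 and 11.47 in EKO, already 1.15 higher in the untreated EKO ear.

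Growth genes formed the most even set of reduced responses. Every one of the 32 measured mitosis and spindle genes had a lower response in EKO and every one was higher with IMQ in both genotypes, against 50.6% of genes above the floor in f/f and 47.1% in EKO. Their median was 1.60 in f/f and 0.82 in EKO, and 29 of 32 were reduced responders. Plk1, a mitotic kinase, stood at 6.96 in untreated f/f, 9.25 in IMQ f/f, 7.78 in untreated EKO and 8.86 in IMQ EKO skin. The level was higher in EKO without IMQ and lower in EKO with IMQ. That held for the list. In untreated EKO 32 of 32 were higher (median gap 0.52), and with IMQ 31 of 32 were lower (-0.27). Genes above the floor had median gaps of 0.02 and -0.001. In 24 of the 32 the untreated gap was the larger (41.4% of genes above the floor). Mki67, a proliferation marker, was at 8.10 and 10.00 in f/f and at 8.78 and 9.76 in EKO. The 30 replication and S-phase genes had medians of 0.80 and 0.33, with Mcm3, a replicative helicase subunit, at 1.29 and 0.50.

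Of 30 ribosome biogenesis and MYC-linked genes, 7 were responders (6.42% of genes above the floor were), 5 reduced and 2 lost (77.6% and 14.2% of all responders). The list medians were 0.81 in f/f and 0.24 in EKO, and 29 of 30 had a lower response in EKO. All 30 were lower in EKO with IMQ, where the median gap of genes above the floor was -0.001. Odc1, the first enzyme of polyamine synthesis, was at 7.76 and 8.79 in f/f and at 7.80 and 7.88 in EKO. Srm, the spermidine synthase of the same pathway, responded by 1.19 and 0.24. These were the 2 lost genes, while Cad was reduced, at 1.19 and 0.41. The 31 proteasome subunits all had a lower response in EKO at a small size, with a median difference of -0.27. Ribosomal protein genes, 57 in number, had a median difference of -0.06, and oxidative phosphorylation subunits one of -0.06 over 33 genes.

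Genes lower with IMQ in f/f belonged in part to tissues below the epidermis, and these were reduced or lost in EKO. All 20 adipocyte genes had a difference above 0 (46.7% of genes above the floor did), with median responses of -1.32 in f/f and -0.32 in EKO. Of 17 responders 11 were reduced and 6 lost, against 77.6% and 14.2% of all responders. Adipoq, the adipocyte hormone adiponectin, stood at 10.83 in untreated f/f, 8.89 in IMQ f/f, 10.12 in untreated EKO and 9.52 in IMQ EKO skin. Pck1, a gluconeogenic and glyceroneogenic enzyme, was lost at -1.70 and -0.29. The summed level of the 3 adipocyte markers was 11.57, 9.75, 10.97 and 10.36 on the same arrays in that order. Skeletal muscle genes, 33 of 35 with a difference above 0, had medians of -0.92 and -0.33. Actn3, of fast muscle fibres, responded by -1.54 and -0.33, and Mylk4, a myosin light chain kinase, by -2.14 and -0.25. The 4 muscle markers summed to 13.75 and 12.89 in f/f and 13.59 and 13.33 in EKO. How much fat and muscle each ear piece held was not tested. Cartilage, collagen and endothelial lists, also from below the epidermis, had median differences of 0.03, 0.08 and 0.15.

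Of 22 resident macrophage genes, 18 were lower with IMQ in f/f and 13 in EKO, with medians of -0.43 and -0.09. The response lay above 0 for 4 (f/f) and 9 (EKO) of the 22. Among genes above the floor that share was 50.6% (f/f) and 47.1% (EKO), so the EKO count lay near background. Responders numbered 5, all reduced, as were 77.6% of all responders. Retnla, a product of alternatively activated macrophages, was at 9.98 and 6.85 in f/f and at 9.47 and 8.16 in EKO. Cd209a, a C-type lectin of dermal dendritic cells, responded by -2.42 and -1.34, and 4 of the 10 genes at least 2-fold lower in EKO stood on this list. Genes of MHC class II and dendritic cells had a median difference of 0.09, and T cell genes one of 0.07, with 5 of 19 above the floor.

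Hair genes were the set that reversed. Of 35 genes at least 1.5-fold in opposite directions in the genotypes (0.329% of genes above the floor), 35 were lower with IMQ in f/f and higher in EKO, and 32 were on the hair lists. All 44 keratin-associated protein genes, 35 of them above the floor, had a difference above 0. Of the 44, 42 were lower in f/f and higher in EKO, a sign pattern found in 7.93% of genes above the floor. Among 1015 olfactory receptor genes, 7 of them above the floor, 326 had this pattern. The olfactory receptor genes had median responses of -0.02 in f/f and 0.02 in EKO. For the keratin-associated genes the median response was -1.08 in f/f and 0.62 in EKO. Krtap8-1 stood at 10.12 in untreated f/f, 8.13 in IMQ f/f, 9.23 in untreated EKO and 10.33 in IMQ EKO skin, and Krtap6-1 at 7.92, 5.32, 6.58 and 7.38 in that order. The IMQ f/f array was the lowest for both. The 16 inner root sheath genes had medians of -0.94 and 0.51. Krt27, an inner root sheath keratin, was at 8.73 and 7.32 in f/f and at 7.85 and 8.68 in EKO, and Krt71 and Krt25 were reversed as well. The 11 hair shaft keratins had medians of -0.57 and 0.52, with Krt33a at 8.98 and 7.35 in f/f and at 8.14 and 9.03 in EKO.

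The reversal was built from gaps on both sides. Keratin-associated genes had a median EKO minus f/f gap of -0.79 without IMQ and of 0.88 with IMQ. The Krtap19 family departed from this, with an untreated gap of 0.12 and 4 of 6 genes above 0, so its median difference of 1.60 lay in the gap of 1.80 with IMQ. Krtap6 genes had a median difference of 2.53 from gaps of -1.20 and 1.30. The summed level of the hair shaft markers (3 of 4 measured: Krt31, Krt86 and Krtap8-1) was 10.60 and 8.93 in f/f and 9.75 and 10.77 in EKO. The hair cycle stage of each ear is not given, and its part in these values was not tested. Regulators of hair growth stages and Wnt genes did not share the pattern, with medians of -0.08 and -0.01 over 28 genes. Of these, Gprc5d, a receptor gene of the hair-forming cells, was reversed at -1.85 and 0.53, while Hoxc13, a hair keratin regulator, stayed below the floor at -0.10 and 0.10.

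Most promoters of the reversed genes held a TATA box string. A TATAAA match on either strand was sought within 250 bases before and 50 after the start. It lay in 28 of 33 promoters of reversed genes whose larger response was the lower level in f/f (84.8%). Krtap24-1, reversed with the larger response in EKO, was counted apart and also held a match. Such a match lay in 13.6% of all 32851 promoters in the table and in 8.01% of those of genes above the floor. Among other classes the share was 15.4% for kept higher, 15.9% for reduced higher and 23.1% for lost higher genes. For reduced lower and lost lower genes it was 14.8% and 22.5%. AP-1 matches lay in 21.2% of the 33 and C/EBP matches in 27.3%, against 5.76% and 7.33% of promoters of genes above the floor. For AP-1 the share was 23.1% for kept higher, 10.6% for reduced higher and 11.5% for lost higher genes. For C/EBP it was 7.69%, 9.93% and 9.62% in these classes, and 15.4% for reduced lower and 15% for lost lower genes. AP-1 matches lay in 8.79% and 5% of those last 2 classes. NF-kB matches lay in 0 of the 33, in 15.4% of promoters of kept higher, 11.9% of reduced higher and 13.5% of lost higher genes, and in 10.5% of those of genes above the floor. Keratin-associated genes arose by duplication and share upstream sequence, so the 33 are not independent. Besides Krtap8-1 above, Krtap6-5 (minus strand, chr16:89047900-89048049) and Krt31 (minus strand, chr11:100050552-100050701), a keratin and a keratin-associated gene of different chromosomes, are shown with the TATA match in capitals, and Krtap6-5 also with an AP-1 match.
Krtap6-5: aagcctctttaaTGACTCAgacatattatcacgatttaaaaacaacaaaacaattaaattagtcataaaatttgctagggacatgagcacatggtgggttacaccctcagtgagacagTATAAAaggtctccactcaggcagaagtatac
Krt31: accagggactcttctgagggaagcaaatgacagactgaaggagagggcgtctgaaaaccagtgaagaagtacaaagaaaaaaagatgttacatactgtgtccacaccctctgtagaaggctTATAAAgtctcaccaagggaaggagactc
Krtap6-5 responded by -1.71 in f/f and 0.81 in EKO. Krt31, at -0.89 and 0.81, moved in opposite directions without reaching 2-fold in either genotype.

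**Figure D4:**
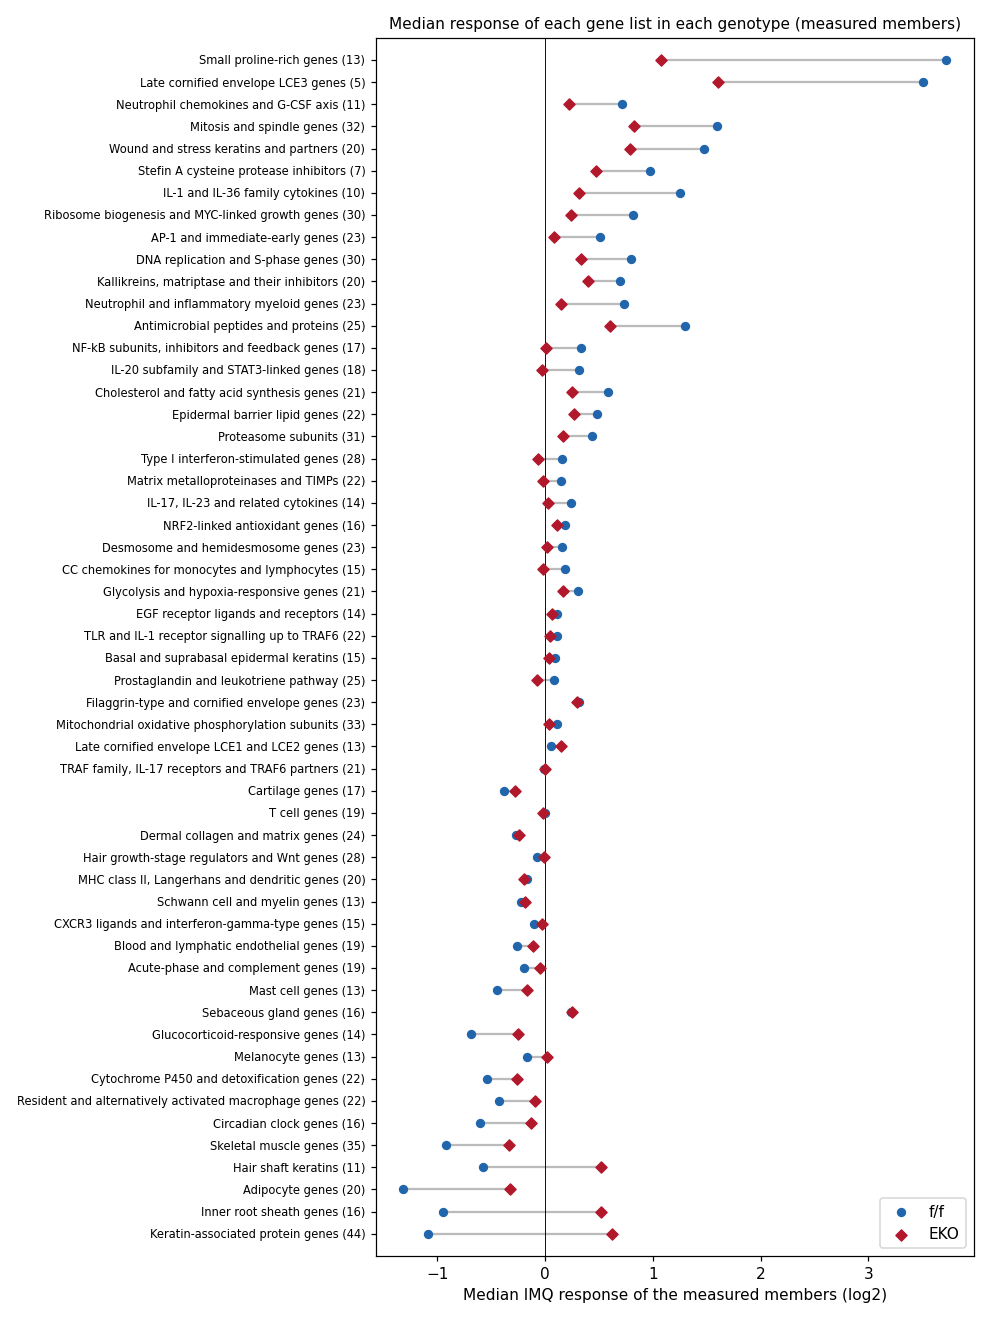
Median IMQ response (x axis, log2) of the measured members of each of 54 gene lists (y axis, number of members in brackets) in f/f (blue circles) and EKO (red diamonds), ordered by the difference of the responses. The small proline-rich and LCE3 lists stand at the top, and the hair shaft, inner root sheath and keratin-associated lists near the bottom have circles below and diamonds above 0.

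The 16 kept responses did not gather on 1 list. They were 15 genes higher in both genotypes and Trim12a, lower at -1.28 and -1.05, and 8 of the 15 stood on none of the lists. Rptn and Spink7 were the largest, followed by Gadl1, a decarboxylase (1.64 and 1.46), Dio2, the deiodinase that makes active thyroid hormone (1.60 and 1.25), and the serpin Serpinb11 (1.54 and 1.32). Krt79, a keratin of the sebaceous duct, was at 9.94 and 11.00 in f/f and at 9.53 and 10.63 in EKO. Pinlyp, a phospholipase inhibitor gene, was at 8.31 and 9.10 in f/f and at 7.74 and 8.88 in EKO, the larger response being that of EKO. Nmu (neuromedin U), named after its values were seen, was kept with the larger response in EKO, at 1.05 and 1.31. Of the 15 genes, 8 lay below the floor in both untreated genotypes.

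For every gene the difference of the responses equals the genotype gap with IMQ minus the gap without it, and the sizes of the 2 parts varied between lists. Of the 126 genes with a 2-fold lower difference, 49 lay below the floor in both untreated genotypes, where an untreated gap could hardly be read. Of the other 77, the gap with IMQ was the larger part in 54 (70.1%), against 57.8% of all genes above the floor in an untreated ear. Ribosome biogenesis genes, 26 of 30 above the floor in an untreated ear, had median gaps of 0.13 without and -0.43 with IMQ, and AP-1 genes, 21 of 23 above it, had 0.28 and -0.09. Mitosis genes, 16 of 32 above it, had 0.52 and -0.27. Antimicrobial genes had gaps of -0.04 and -0.72 and small proline-rich genes 0.07 and -1.86, but 18 of 25 and 9 of 13 of them lay below the floor in both untreated genotypes, so their untreated gaps were read near background. Among reduced responders, 299 of 331 reduced higher genes stood above f/f in the untreated EKO ear, and 181 of 199 reduced lower genes stood below it. Genes above the floor had a median untreated gap of 0.02. The untreated f/f array enters both that gap and the f/f response, and the untreated EKO array enters both the gap and the EKO response. These counts are therefore not independent of the choice of responders or of the reduced class, and no lean before treatment can be read from them. Sebaceous gland genes had gaps of -0.58 and -0.44 and median responses of 0.24 and 0.25, but their members went both ways, with differences from -0.74 to 1.60 and 6 of 16 responders, 4 reduced and 2 kept. Scd3, a sebaceous desaturase, was at 9.12 and 6.96 in f/f and at 7.20 and 6.63 in EKO.

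**Figure D5:**
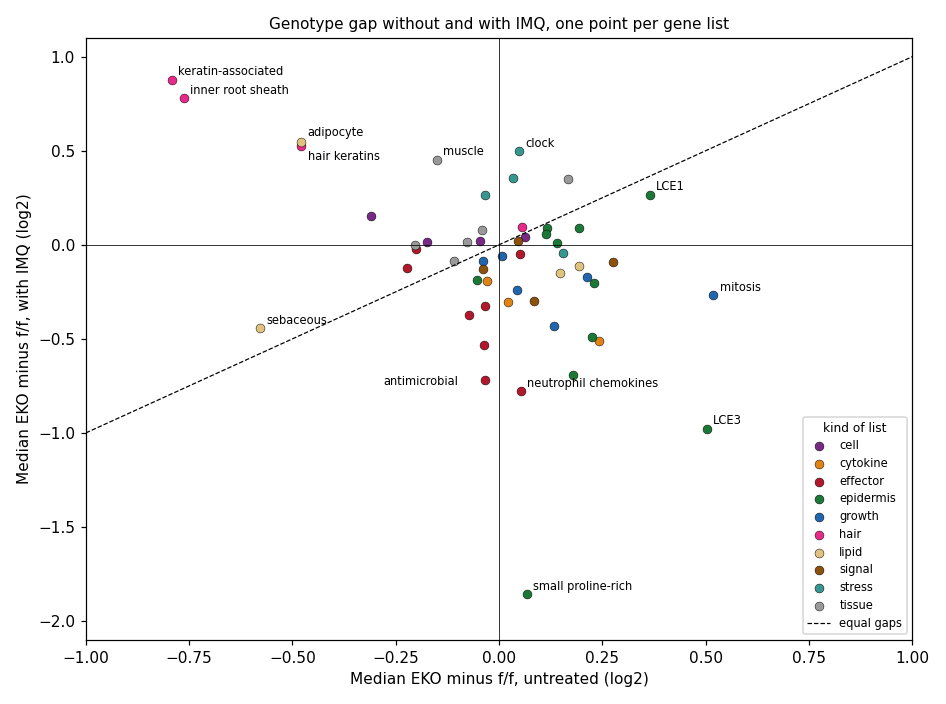
Median EKO minus f/f level without IMQ (x axis) and with IMQ (y axis), log2, one point per gene list and coloured by kind of list; the dashed line marks equal gaps, and the distance above or below it is the difference of the medians. The keratin-associated, inner root sheath, hair shaft and adipocyte lists lie at the upper left, the hair regulators near the origin, the small proline-rich list at the bottom near an untreated gap of 0, and mitosis and LCE3 genes to the lower right.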

How the data were processed

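Affymetrix Mouse Gene 1.0 ST arrays read whole ear skin RNA, 1 array per group, with groups taken from the sample titles. The deposited log2 values are probe set levels that the authors made with RMA, per the submitters' processing notes; the sources used here give neither its version nor its annotation. RMA equalises arrays, so a shift of most genes one way would be hidden. Of 35556 probe sets, 21789 had 1 gene symbol in the platform annotation and gave 19938 genes.

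Responses, their difference and the genotype gaps were subtracted on the log2 scale with Python 3.11.15; medians cover all measured members of a list, while classes and counts past a fold need the floor. Members, the 56 lists and the thresholds were chosen with earlier results of these data known. With 1 array per group nothing was tested for significance; the class step was tested on simulated data. Named genes are Traf6, the 10 largest differences per direction, the 5 largest responses per class and direction, the 4 largest differences and 2 kept members per list, and members a sentence needs. Promoter sequences from RefSeq matched 180 of 235 such genes. Alternatives were other scalings (array medians, and cyclic loess and quantile in R 4.3.3 with limma), floors, probe set rules, thresholds and list statistics.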

Additional observations from a re-analysis of the deposited data

Results flagged for a closer look

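Among the named genes, 13 had IMQ responses of at least 1.5-fold in opposite directions in the genotypes, each lower in f/f and higher in EKO, which is what brought them here. The difference between the genotypes was not tested, as each response rests on 1 pair of arrays. Among keratin-associated genes the difference of the responses (log2) was 3.40 for Krtap6-1, 3.09 for Krtap8-1, 2.57 for Krtap7-1, 2.57 for Krtap4-16, 2.55 for Krtap6-3, 2.52 for Krtap6-5, 2.42 for Krtap21-1 and 1.94 for Krtap24-1. Among hair shaft keratins it was 2.51 for Krt33a, 2.06 for Krt86 and 1.70 for Krt31. In the inner root sheath it was 2.36 for Tchh and 2.25 for Krt27. Of the 13, Krtap8-1, Krtap7-1, Krtap4-16, Krt33a, Krt27 and Tchh lay above the floor on all 4 arrays, and the others did not on 1 to 3 of them.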

How the results depend on the processing

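No paired analysis was possible because each group holds 1 array, and for the same reason no array could be left out. Under the 3 other scalings and with probe sets averaged per gene, every count of differences and of classes stayed within 1.5 times its value and all 56 list medians within 0.1. Named genes did so too except 4 of 235 with averaged probe sets. No list median and no named gene with a difference of at least 0.3 changed direction under any alternative run. Setting array medians equal moved the median difference of all genes from -0.00 to -0.04. At 1.5-fold, the differences numbered 389 higher and 493 lower. With responders chosen at 1.5-fold in either genotype there were 2103, of which 85 kept, 1595 reduced, 350 lost, 9 enlarged in EKO, 5 present in EKO alone and 59 reversed. Choosing by f/f alone left 0 enlarged and 0 present in EKO alone. Choosing by EKO alone left 79 responders, 60 reduced, 0 lost and 5 reversed, with 12 kept (15.2% against 2.34%). Choosing by the average of both responses left 267, of which 230 reduced and 22 lost, with 0 enlarged, 0 present in EKO alone and 0 reversed, since opposite responses cancel in an average. The shares of each class thus depend on which genotype chose the genes. Ratio borders of 0.33 and 0.67 gave 29 kept, 213 lost and 0 enlarged. Without a floor 2 genes were enlarged, and with a floor on the mean of the 4 arrays 9 were kept. That floor moved the medians of 13 of 55 lists by over 0.1, most for neutrophil chemokines, by 0.99. Means in place of medians moved 18 lists by over 0.1. Members of 1 list only moved 5, most for wound and stress keratins, by 0.28. The cause of these moves was not tested, apart from the fewer or more genes each choice admits. Folds of genes below the floor on untreated arrays, among them cytokine, chemokine, defensin, Sprr2 and Lce3 genes, are limited by background.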

Other observations

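Responders outside the lists included enzymes of hyaluronan and urate metabolism and transporters, named here after their values were seen. Has3, a hyaluronan synthase, responded by 3.34 in f/f and 1.06 in EKO, and Has2, of the same family, by 1.73 and -0.30. Uox, which oxidises urate, was at 4.33 and 6.96 in f/f and at 4.34 and 4.41 in EKO, and 3 of the 4 arrays lay below the floor. Slc5a1, a sodium-glucose transporter, responded by 2.39 and 0.51, and Acod1, which makes itaconate in myeloid cells, by 2.07 and 0.52. Aqp3, the glycerol channel of keratinocytes, responded by 2.17 and 1.06. Car6, a secreted carbonic anhydrase, was at 8.56 and 6.44 in f/f and at 8.34 and 8.54 in EKO.

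The 16 clock genes responded by a median of -0.60 (f/f) and -0.14 (EKO), with a gap of 0.05 without and 0.50 with IMQ. Per3 was at 8.79 and 7.77 in f/f and at 8.75 and 8.62 in EKO, and Dbp responded by -0.95 and -0.15. The hour at which each ear was taken is not given. Glucocorticoid-responsive genes had medians of -0.69 and -0.26, with Tsc22d3 at -1.22 and -0.54. Of 13 melanocyte genes, 9 were higher and 3 lower in EKO without IMQ (median gap 0.17) and 13 were higher with IMQ (0.35). Genes above the floor had median gaps of 0.02 and -0.001. Tyrp1 was higher by 1.25 without and 1.65 with IMQ. Of the 3 melanocyte markers (Tyr, Dct and Tyrp1), 0 reached the floor on either f/f array and 2 did on each EKO array. Only 7 of the 13 melanocyte genes reached it on any array, so these gaps are limited by background.

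Probe sets that name no single gene were left out of the comparisons. Of 1621 with several symbols, 779 reached the floor, and the difference of the responses was at least 2-fold higher in 18 and lower in 7. Of 12146 without a listed gene, 3949 reached it, with 46 higher and 18 lower.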
